A study of Rattus norvegicus with 16 samples.

Results

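Kidney libraries of DOCA rats given spironolactone were compared with those of DOCA rats given vehicle by bulk RNA-Seq, with 4 libraries in each group. All libraries labelled with either treatment were used, 8 of the 16 bulk libraries of the series. DOCA is deoxycorticosterone acetate, a mineralocorticoid given with salt to cause hypertension and kidney damage. Both groups were Sprague-Dawley rats, male per the study's methods. The labels give 6 weeks as the age, whereas the methods give 6 weeks as the time from the first DOCA injection to the end of the study for most rats. The study describes its bulk RNA-Seq data as those of 6 weeks of treatment. Both groups lost the left kidney before treatment and then received weekly DOCA under the skin and salt in the drinking water. They differed in the daily gavage, which held spironolactone or vehicle alone. The other 8 libraries were 4 of sham-operated control rats and 4 of DOCA rats given finerenone by gavage. The RNA was polyadenylated RNA of whole kidney tissue, and the labels do not tie each library to an animal, so the p-values measure the spread between these libraries.

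Mineralocorticoids bind the mineralocorticoid receptor, a transcription factor of the steroid receptor family. In the distal nephron and collecting duct the activated receptor raises sodium reabsorption through the epithelial sodium channel, and it is also present in cells outside these segments. Spironolactone is a steroidal antagonist of the receptor, whereas finerenone is a nonsteroidal one. The comparison asked how the expression profile of the kidney differed between DOCA rats with and without spironolactone, and how large a difference the libraries leave possible for each gene. In whole tissue, fewer cells of a type and less RNA per cell cannot be told apart.

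Total estimated counts were between 7179539 and 7799532 in DOCA libraries and between 7433345 and 10932887 in spironolactone libraries, the highest being replicate 4. A total of 14213 genes had enough counts for testing. Of these, 9618 are called well counted here, meaning a mean of at least 10 CPM over the 8 libraries (counts relative to a library total of 1000000), and their median count per library was 319.5. DOCA replicate 4 stood apart from its group, with a mean distance of 0.710 from the other DOCA libraries. Spironolactone replicate 4 did not, with a mean distance of 0.502 from the other spironolactone libraries. This distance is the root mean square difference of log2 CPM over the genes tested. The study set aside 1 library of each group as an outlier, taken here to be replicate 4 of both, and results are given with and without these. The files list Ensembl gene IDs without names, so the kidney could not be checked against marker genes and the known targets of the receptor could not be picked out.

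Spironolactone and DOCA kidneys differed in 1 gene by edgeR's quasi-likelihood test, with a Benjamini-Hochberg adjusted p under 0.05 and a log2 fold change of 0.5 or more in size. This was 0.00704% of the 14213 genes tested. The gene, ENSRNOG00000051837, was named because it is the only call, after its values were seen. The next lowest adjusted p of that test was 0.913. Without replicate 4 of both groups, 0 of 14208 genes were called, and the lowest adjusted p was 0.109. At an unadjusted p under 0.05, the 8 libraries gave 661 genes (4.65%), of which 298 (2.1%) were higher and 363 (2.55%) lower with spironolactone, and the 6 libraries gave 684 (4.81%). Over the same 8 libraries, 9 genes were called by DESeq2 and 5 by a likelihood ratio test in edgeR.

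Fits of the same size made many more calls in other comparisons of these kidneys. Finerenone and DOCA differed in 2100 of 13967 genes (15%), with 912 (6.53%) higher and 1188 (8.51%) lower under finerenone. DOCA and control differed in 3918 of 13898 genes (28.2%), with 2239 (16.1%) higher and 1679 (12.1%) lower under DOCA. A direct fit of finerenone against spironolactone called 1696 of 14005 genes (12.1%). These comparisons share libraries with one another, so their counts are not independent. They also moved with the scale. On log2(TPM + 0.1) the median of all genes was -0.42 for finerenone vs spironolactone, -0.38 for finerenone vs DOCA and 0.48 for DOCA vs control, whereas on the CPM scale it was -0.03, -0.04 and 0.03. For spironolactone vs DOCA it was near 0 on both, at 0.0323 and -0.01, so the comparisons with other groups are read below beside these shifts. With limma on log2(TPM + 0.1), 2 genes were called for spironolactone vs DOCA, 3987 for finerenone vs DOCA, 6087 for DOCA vs control and 4452 for finerenone vs spironolactone. The spread behind them was close, with a median standard error of the log2 fold change of 0.14 in well counted genes for spironolactone vs DOCA, for finerenone vs DOCA and for DOCA vs control. The estimated changes differed in size. The median absolute log2 fold change of well counted genes was 0.11 for spironolactone vs DOCA, 0.24 for finerenone vs DOCA and 0.31 for DOCA vs control. An estimate of at least 1 was found in 19 of 9618 well counted genes (0.198%) for spironolactone vs DOCA, compared with 446 (4.80%) for finerenone vs DOCA and 909 (9.90%) for DOCA vs control.

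**Figure D1:**
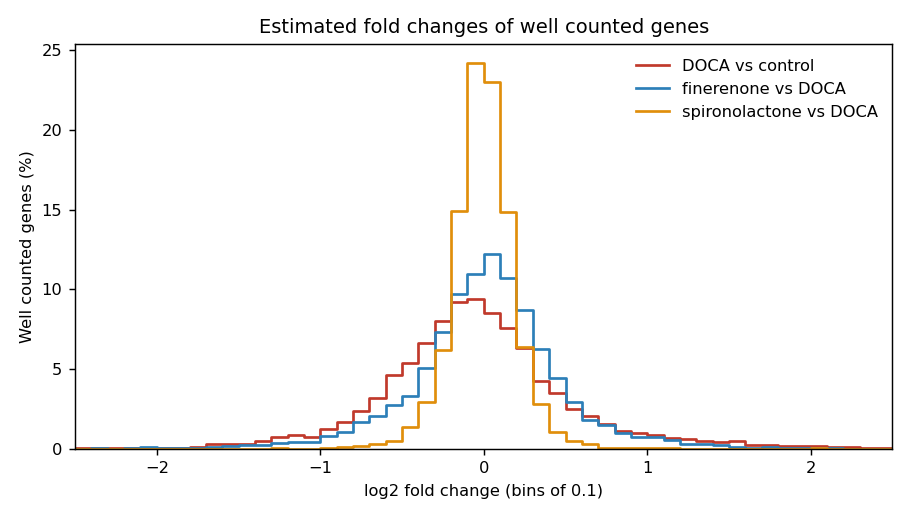
Distribution of the estimated log2 fold change (x axis, bins of 0.1) over well counted genes (y axis, percent of genes) for spironolactone vs DOCA, finerenone vs DOCA and DOCA vs control, each fitted on its own 8 libraries; the last 2 share the DOCA libraries with the first. The curve for spironolactone vs DOCA is the narrowest, with a median absolute value of 0.11 compared with 0.24 and 0.31.

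Libraries of different groups were on average about as far apart as libraries of the same group. The mean distance was 0.571 over the 16 pairs of a spironolactone and a DOCA library, with a range from 0.474 to 0.766. Within groups it was 0.606 among DOCA libraries and 0.532 among spironolactone libraries. Once replicate 4 was left out, it fell to 0.502 among DOCA libraries and rose to 0.562 among spironolactone libraries. The mean distance between groups exceeded that within groups by 0.00242, and an exact 2-sided permutation test of the group labels gave p = 0.8. Nearest neighbours crossed the groups for some libraries. The library nearest to DOCA replicates 1 and 3 was spironolactone replicate 4, which had the highest total count. The nearest to spironolactone replicates 1 and 4 was DOCA replicate 1. Each of the other libraries had its nearest neighbour in its own group. The median log2 fold change was -0.01 over all genes tested. This median was also small for DOCA vs control on the CPM scale, at 0.03, so it does not measure how alike groups are.

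**Figure D2:**
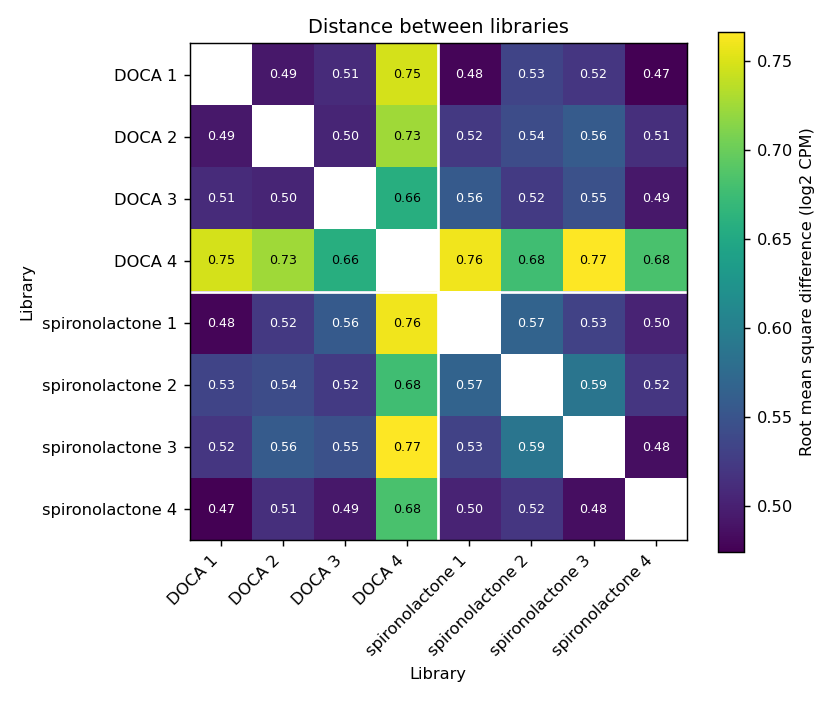
Pairwise distance between the 8 libraries, as the root mean square difference of log2 CPM over the genes tested, with white lines between DOCA and spironolactone libraries. DOCA replicate 4 is the farthest from all others, and the remaining libraries show no block by group, with pairs across groups down to 0.474.

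The largest effect that the 95% interval of a gene still held was then read for every gene, whichever way it pointed. In well counted genes its median was 0.41 on the log2 scale, a 1.33-fold change. For 75% of these genes the interval held nothing above 0.56 (1.48-fold), and for 95% of them nothing above 0.96 (1.94-fold). The whole interval lay within a log2 fold change of 1 either way in 9221 of the 9618 (95.9%) and within 0.5 in 6371 (66.2%). Over all genes tested these shares were 79.6% and 45.8%. For finerenone vs DOCA, 84.1% of well counted genes had an interval within 1 and 40.6% within 0.5, and for DOCA vs control the shares were 77.7% and 33.4%. Equivalence was tested by a pair of one-sided tests on the quasi-likelihood fit, with Benjamini-Hochberg adjustment over all 14213 genes. It was called within 1 for 9315 well counted genes (96.8%) and within 0.5 for 6202 (64.5%). Without replicate 4 of both groups these shares were 97.2% and 73.2%. Over all genes tested, equivalence was called for 83.2% and 44.4%.

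The bound depended on how well a gene was counted. Of 650 genes with a mean under 1 CPM, the interval lay within 1 in 0.615%, and the median bound was 1.81, a 3.50-fold change. Of 3945 genes between 1 and 10 CPM, 52.9% had an interval within 1, and the median bound was 0.97. The share was 94.8% of 3683 genes between 10 and 30 CPM, 96.8% of 4027 between 30 and 100 CPM and 96.2% of 1432 between 100 and 300 CPM. It was 95.4% of the 476 genes of the highest class, from 300 CPM up, whose median bound of 0.43 was above the 0.35 of the class before it. The median bound was 0.36 from 30 to 100 CPM, so it was no narrower in the highest class than in classes with fewer counts. The 100 genes with the highest mean TPM, a level scaled for gene length, together held 44.8% of all TPM. Their estimates ran from -0.39 to 0.43 on the log2 scale, 2 had an unadjusted p under 0.05 (4.65% of all genes tested did), 1 did not overlap between groups (3.49% of all genes tested), and 96 had an interval within 1 (79.6% of all genes tested).

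**Figure D3:**
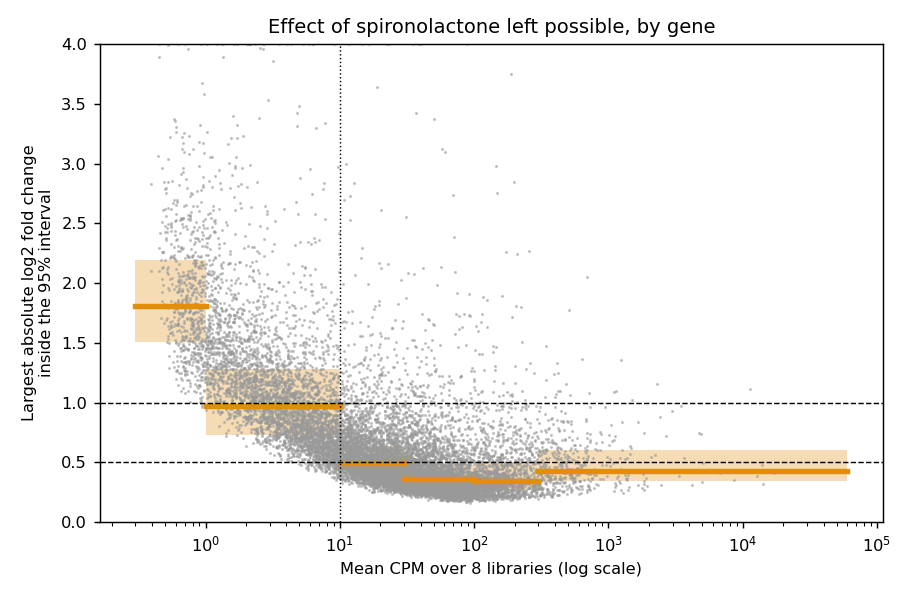
Largest absolute log2 fold change inside the 95% interval of spironolactone vs DOCA (y axis, values above 4 drawn at 4) against mean CPM (x axis, log scale), 1 point per gene tested. Orange lines and bands give the median and the middle 50% of genes in each CPM class; dashed lines mark 0.5 and 1, and the dotted line marks 10 CPM, right of which 95.9% of points lie under 1.

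The intervals can be set beside the size of the changes that DOCA, salt and nephrectomy went with. A total of 2566 well counted genes were called between DOCA and control. Their median absolute log2 fold change in that comparison was 0.80, a 1.75-fold change, with quartiles of 0.63 and 1.16. A call there asked for 0.5 or more in size, so these values are of genes picked for large changes in that comparison. The median bound of the same genes for spironolactone vs DOCA was 0.50, a 1.41-fold change, with quartiles of 0.37 and 0.69, and their median absolute estimate was 0.15. Both comparisons use the DOCA libraries. A list from libraries that neither group supplied was the set of 458 genes called between finerenone and control (3.37% of 13598). Of its 361 higher genes (2.65%), 14 had an unadjusted p under 0.05 for spironolactone vs DOCA (3.88%, against 4.65% of all genes), 6 did not overlap between groups (1.66%, against 3.49%), and the median log2 fold change was -0.12. Of its 97 lower genes (0.713%), 94 were tested, 9 (9.57%) had an unadjusted p under 0.05, 2 (2.13%) did not overlap, and the median was -0.05.

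A total of 397 well counted genes had an interval that reached a log2 fold change of 1. In 98 of them the interval was at least 1 to each side of the estimate, so no estimate could have brought it within the bound. DOCA replicate 4 was the library farthest from its group in 217 of the 397 (54.7%), and in 3998 of the other 9221 well counted genes (43.4%). Once replicate 4 of both groups was left out, 175 of the 397 had an interval within 1, as did 9110 of the other 9221, so genes crossed the bound in both directions. Spironolactone replicate 2 was farthest in 59 of the 397 (14.9%) and in 1029 of the other 9221 (11.2%). The part of these libraries in the wide intervals was not tested.

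Large estimates were few. Of the 19 well counted genes with an estimate of at least 1, 14 were higher and 5 lower with spironolactone, and the estimates reached 2.43 and -1.85. In 5 of them the groups did not overlap, which 3.79% of all well counted genes met. In 10 of them spironolactone replicate 2 was the library farthest from its group, compared with 3 for DOCA replicate 4. The estimate stayed at 1 or more in 13 of the 19 without replicate 4 of both groups. It did so in 11 without spironolactone replicate 2, in 13 without spironolactone replicate 3 or DOCA replicate 4, and in 16 to 19 without each of the other libraries. A further 197 genes had estimates from 0.5 to 1 (91 higher, 106 lower), of which 37 did not overlap, and DOCA replicate 4 was farthest in 107. It was farthest in 4105 of the remaining 9402 genes, which were estimated under 0.5.

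Small shifts were called consistent where the CPM of the 4 libraries of each group did not overlap, and the unadjusted p was under 0.05 both with all 8 libraries and without replicate 4 of both groups. Non-overlap alone was met by 496 of the genes tested (3.49%), 241 higher (1.7%) and 255 lower (1.79%) with spironolactone, and by 365 well counted genes (3.79%), 192 higher (2%) and 173 lower (1.8%). The full rule was met by 185 (1.3%), 81 higher (0.57%) and 104 lower (0.732%). The number moved when libraries were left out, but non-overlap of fewer libraries is easier to meet, so these counts are not like for like. It was 552 in the 6 libraries without replicate 4 of both groups, where the p-value of all 8 libraries was not asked for. It was 366, 329, 287 and 284 when DOCA replicate 4, spironolactone replicate 2, DOCA replicate 1 or spironolactone replicate 4 alone was left out. Among well counted genes the full rule was met by 145 (1.51%), 66 higher (0.686%) and 79 lower (0.821%). None of these 145 passed edgeR's quasi-likelihood test after Benjamini-Hochberg adjustment, the lowest adjusted p being 0.913, and the rule itself asks for low p-values, so their number is a description. Their median absolute log2 fold change was 0.37, a 1.30-fold change, with a range from 0.19 to 1.19. A total of 109 of them were estimated under 0.5 and 3 at 1 or above. In 124 the interval lay within 1, so these shifts left no room for a larger one at that level. The 40 consistent genes that were not well counted had a median absolute estimate of 1.12.

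**Figure D4:**
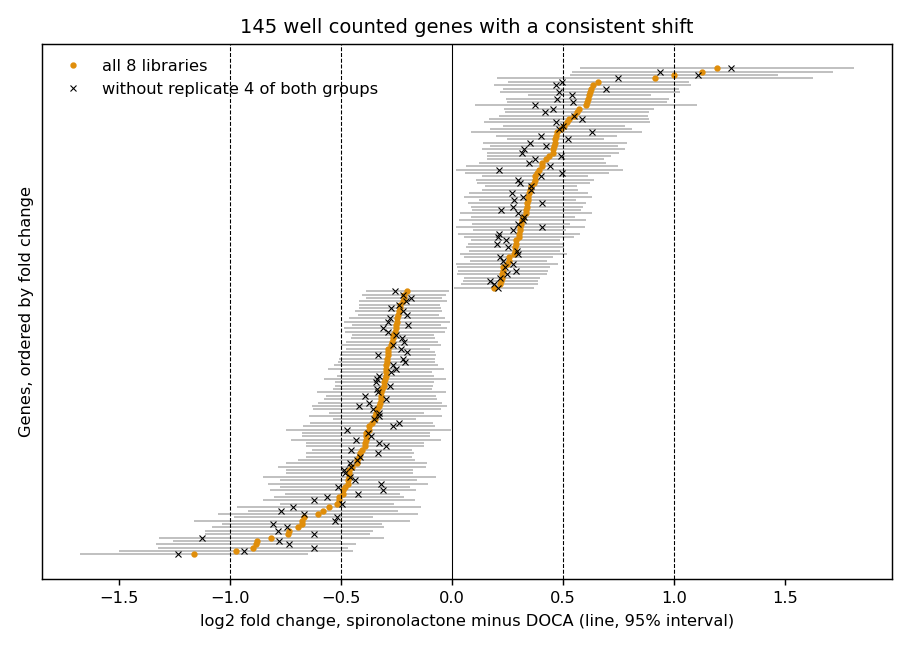
Log2 fold change of spironolactone vs DOCA (x axis) for the 145 well counted genes with a consistent shift, ordered by size along the y axis. Orange points with grey 95% intervals are from 8 libraries and crosses from the 6 libraries without replicate 4 of both groups; 79 genes lie below 0 and 66 above, most within 0.5 of it.

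Separate pairs of libraries gave little likeness in the estimates of well counted genes. Library codes in the files begin with 4 or 6 in spironolactone libraries and with 7 or 8 in DOCA libraries, a pair each, and the sources used here do not say what this first number stands for. This division was chosen after the values were seen. Across 9618 genes, the log2 difference of codes 4 and 7 and that of codes 6 and 8, which share no library, had a Pearson correlation of -0.04 and a Spearman correlation of -0.07. The other way of pairing the codes gave -0.06 and -0.07. Genes are not independent, so these values are descriptions. Code 8 includes DOCA replicate 4, and the differences that used it spread more widely over genes. Their SD was 0.36 and 0.35, against 0.23 and 0.25 for the differences that used code 7. The part of this library in the low correlations was not tested.

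The only call, ENSRNOG00000051837, was nearly absent from DOCA libraries and present in every spironolactone library. Estimated counts were 0, 1, 6 and 2 in DOCA replicates 1 to 4, and 54, 63, 57 and 91 in spironolactone replicates 1 to 4. All spironolactone libraries were above all DOCA libraries. Mean levels were 0.290 ± 0.325 CPM (SD, n = 4) with DOCA and 7.75 ± 0.36 CPM (SD, n = 4) with spironolactone, and per length 0.045 and 1.25 TPM. The gene rose with spironolactone by 4.64 ± 0.59 (log2 fold change ± SE). The 95% interval ran from 3.34 to 5.95, and the adjusted p was 0.019 by edgeR's quasi-likelihood test. The pooled counts were 265 against 9, a ratio of 26.3 per library size with an exact interval of 13.7 to 58.2 that covers counting error only.

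This gene was also counted in the remaining groups. Finerenone replicates 1 to 4 had 35, 45, 35 and 36 counts, close to the spironolactone libraries and far above the DOCA libraries. Control replicates had 5, 3, 2 and 38 counts, so replicate 4 alone of this group was at the level of the drug groups. Its values in the DOCA and spironolactone libraries are those for which it was named, so comparisons that reuse either group are descriptions. The log2 fold change of finerenone vs DOCA was 4.25 ± 0.64 (SE), with an adjusted p of 0.00126, and finerenone vs spironolactone gave -0.40, with an adjusted p of 0.181, both by edgeR's quasi-likelihood test. The latter was -0.72 on log2(TPM + 0.1) (adjusted p = 0.0383 by limma), and -0.31 relative to the median of all genes. At a mean of 4.02 CPM the gene was not among the well counted ones. Its call was lost without replicate 4 of both groups (adjusted p = 0.109 by edgeR), and when DOCA replicate 2 (0.148) or spironolactone replicate 1 (0.141), 2 (0.137), 3 (0.128) or 4 (0.172) was left out. The fold change was about as large in these fits, at 4.57 on the log2 scale without replicate 4 of both groups and between 4.44 and 4.66 without the single libraries. Its size rested on very low DOCA levels and moved with the value added to TPM. With limma on all 8 libraries, spironolactone vs DOCA was 3.28 on log2(TPM + 0.1) (adjusted p = 0.024) and 1.11 on log2(TPM + 1) (adjusted p = 0.0178). Without DOCA replicate 3, which held 6 of the 9 DOCA counts, the call was kept with a log2 fold change of 5.70.

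Of the well counted genes with a consistent shift, the 2 higher and the 2 lower with the smallest unadjusted p are given below. Non-overlap of the groups was part of the rule that chose them, so it is not a further result. They were chosen for their values in the DOCA and spironolactone libraries, so other comparisons that reuse either group are descriptions. None of the 4 passed edgeR's quasi-likelihood test, with an adjusted p of 0.913 for each. DESeq2 gave them adjusted p-values from 0.0259 to 0.0378, and edgeR's likelihood ratio test called the 2 lower genes (0.0204 and 0.0242).

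The first higher gene was ENSRNOG00000018019. Its CPM were 53.3, 58.1, 46.8 and 41.7 in DOCA replicates 1 to 4, and 72.1, 67.8, 90.4 and 76.5 in spironolactone replicates 1 to 4. The gap between the groups, which the rule asked for, ran from 58.1 to 67.8. The log2 fold change was 0.62 ± 0.13 (SE), with an interval from 0.34 to 0.89, and it was 0.54 without replicate 4 of both groups. The same DOCA libraries gave 0.97 for finerenone vs DOCA (adjusted p = 0.00079) and -0.87 for DOCA vs control (adjusted p = 0.00659). Tested directly by edgeR, finerenone libraries were higher than spironolactone libraries by 0.35 (adjusted p = 0.0282). On log2(TPM + 0.1) this difference turned to -0.05 (adjusted p = 0.795 by limma), with mean TPM of 13.54 and 13.97, and it was 0.37 relative to the median of all genes on that scale. DOCA vs control was -0.36 (adjusted p = 0.19 by limma) on the TPM scale. On a scale common to all 16 libraries, the mean levels were 83.2 CPM in control, 45.1 in DOCA, 69.7 in spironolactone and 88.5 in finerenone libraries. Control replicate 4, at 124 CPM, was far above the other 3 control libraries, which had between 68.9 and 71.0.

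The second higher gene was ENSRNOG00000014530. DOCA replicates 1 to 4 had 110, 107, 93.6 and 112 CPM, and spironolactone replicates 1 to 4 had 130, 155, 161 and 138 CPM. By the rule, the lowest spironolactone library was above the highest DOCA library. The log2 fold change was 0.47 ± 0.10 (SE), with an interval from 0.25 to 0.68. Finerenone vs DOCA gave 0.46 (adjusted p = 0.0166 by edgeR), and DOCA vs control gave -0.06 (adjusted p = 0.638). On log2(TPM + 0.1) this order turned round, with 0.09 (adjusted p = 0.643 by limma) for finerenone vs DOCA and 0.41 (adjusted p = 0.0236) for DOCA vs control. Relative to the median of all genes on that scale, the values were 0.48 and -0.08. Equivalence within a log2 fold change of 1 was called for this gene (adjusted p = 0.000252 by the pair of one-sided tests), though the gene was picked for its low p-value.

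The first lower gene, ENSRNOG00000000436, had 25.9, 22.3, 23.5 and 35.6 CPM in DOCA replicates 1 to 4, and 15.9, 12.1, 13.8 and 16.4 CPM in spironolactone replicates 1 to 4. DOCA replicate 4 was the highest of the 8. The log2 fold change was -0.88 ± 0.17 (SE), with an interval from -1.25 to -0.50, and -0.78 without replicate 4 of both groups. The spironolactone libraries were also below the finerenone libraries, by 0.64 (adjusted p = 0.0102 by edgeR). This was 0.24 on log2(TPM + 0.1) (adjusted p = 0.132 by limma) and 0.65 relative to the median of all genes there. Finerenone vs DOCA gave -0.22 (adjusted p = 0.4) and DOCA vs control gave 0.00 to 2 decimals (adjusted p = 0.989). These became -0.58 (adjusted p = 0.0119 by limma) and 0.47 (adjusted p = 0.0539) on log2(TPM + 0.1), and relative to the median of all genes -0.20 and -0.01.

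The second lower gene, ENSRNOG00000000406, had 15.8, 21.6, 25.3 and 15.6 CPM in DOCA replicates 1 to 4, and 5.55, 11.4, 9.62 and 8.44 CPM in spironolactone replicates 1 to 4. The log2 fold change was -1.16 ± 0.23 (SE), with an interval from -1.67 to -0.65, so the data left a change of more than 1 possible. Its finerenone libraries were spread from 6.81 to 42.6 CPM on the scale of 16 libraries, over the range of both groups. Finerenone vs DOCA gave 0.19 (adjusted p = 0.828 by edgeR) and DOCA vs control gave 0.66 (adjusted p = 0.124). Both shifted with the scale, to -0.47 (adjusted p = 0.463 by limma) and 1.15 (adjusted p = 0.0162) on log2(TPM + 0.1), and relative to the median of all genes -0.08 and 0.66.

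**Figure D5:**
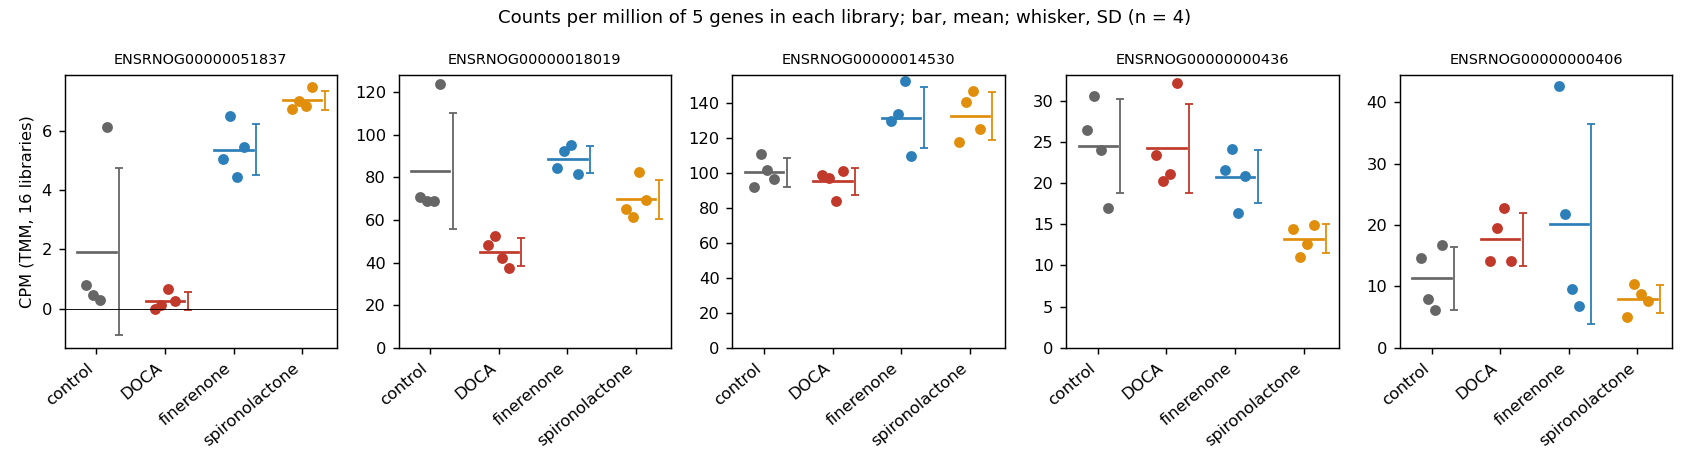
CPM on a scale common to all 16 libraries (y axis) of the 5 genes named in the text, 1 panel each, with 1 point per library, the group mean as a bar and the SD as a whisker (n = 4). Spironolactone points lie above all DOCA points in the first 3 panels and below them in the last 2, which the rule asked of all but the first gene. Control replicate 4 stands above its group in the first 2 panels.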

How the data were processed

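Per the study's methods and the submitters' processing notes, the authors trimmed reads with Trim Galore 0.4.5, aligned them to the rat genome rn6 (Rnor_6.0) with STAR 2.7.3a, and used RSEM for quantification per gene. The annotation release is not given in the sources used here. The deposited estimated counts are RSEM values that were not scaled, and 3.28% of those in the 8 libraries were not whole; they were rounded. The deposited TPM values, which the authors had scaled by length and depth, served for levels between genes and as an alternative. Counts of genes with near-identical copies are uncertain, since RSEM divides shared reads among them.

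Groups and replicate numbers came from the sample labels. The tables hold 32623 Ensembl IDs. The RefSeq gene table of GRCr8 has 47357 rows and 0 filled cells for Ensembl IDs, so 0 IDs were named and lists of genes by symbol were not tested. The members, rules and lists were chosen with earlier results of these data known.

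Genes counted above 4 in 4 or more of the 8 libraries entered a fit in edgeR 4.0.16 (R 4.3.3, robust quasi-likelihood F test, TMM, no block), on the 2 groups alone, and called where the adjusted p (Benjamini-Hochberg) was under 0.05 and the log2 fold change was 0.5 or more in size. The common biological coefficient of variation was 0.192. Intervals (95%) are Wald intervals from the posterior quasi-dispersion and a t distribution; 1 gene had none. For distances, a prior count of 2 was added before taking log2 CPM. The genes to be named were the calls and, since no names could be had, the 2 higher and 2 lower consistent, well counted genes with the smallest unadjusted p. The fits were tested on simulated data.

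A floor of 3 counts was between 0.272 and 0.424 CPM per library. Intervals of pooled counts and floors cover counting error only. Each of the 12 pairs of libraries within a group differed beyond sampling noise (chi-square per gene 5.50 to 33.7), so each was treated as a replicate. This cannot show whether each library came from its own animal. Other comparisons, each on its own 8 libraries, were also fitted with limma on log2 TPM, an alternative added after the values were seen. Alternatives covered normalization, filters, tests (DESeq2 1.42.0, edgeR's likelihood ratio test, limma 3.58.1 with voom or on log2 TPM), the libraries and groups fitted, a replicate block, libraries summed by first code number and the CPM for well counted genes.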

Additional observations from a re-analysis of the deposited data

Results flagged for a closer look

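In 26 groups of 4 libraries examined for a library far from the others, 4 were flagged, where chance gives about 1.3 for independent groups. These groups were not independent, and many are of genes named for their values, so the excess is a description. The level of ENSRNOG00000051837 was 6.15 CPM in control replicate 4, far above the other control libraries. The level of ENSRNOG00000018019 was 124 CPM in the same library. The total count of 10932887 in spironolactone replicate 4 was far above its group. DOCA replicate 4 had a mean distance of 0.71 from its own group.

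The effects of finerenone and spironolactone against the same DOCA libraries differed in 2 of the 5 named genes when tested directly. This count asked only for an adjusted p under 0.05 by edgeR's quasi-likelihood test. The 12.1% of all genes called also had a log2 fold change of 0.5 or more in size. ENSRNOG00000018019, at 0.35, did not meet that size, so the count and this share are not like for like. The 5 named genes were chosen for their values in the same spironolactone libraries, so the count of 2 is a description. Finerenone minus spironolactone was 0.35 (log2, adjusted p = 0.0282) for ENSRNOG00000018019 and 0.64 (log2, adjusted p = 0.0102) for ENSRNOG00000000436. On log2(TPM + 0.1) these were -0.05 (adjusted p = 0.795 by limma) and 0.24 (adjusted p = 0.132), on a scale where the median of all genes was -0.42.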

How the results depend on the processing

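The number of genes called was 9 with DESeq2 (4 higher), 5 with edgeR's likelihood ratio test (2 higher) and 2 with limma on log2(TPM + 0.1), and 0 without replicate 4 of both groups, in fits of all 16 or of 14 libraries, and with libraries summed by first code number; it was 0 to 1 when each library was left out. At an unadjusted p under 0.05 these fits with 0 calls had 684, 843, 579 and 440 genes. Same-numbered replicates had correlated deviations of 0.15, -0.07, 0.07 and 0.07, so the numbers were not taken as pairs; with a replicate block, 0 genes were called and 741 had an unadjusted p under 0.05. The adjusted p of ENSRNOG00000051837 was 0.281 with 16 libraries, 0.74 with 14, 0.248 with the replicate block and 0.478 with summed libraries, while its log2 fold change was 4.64, 4.57, 4.70 and 4.69. Why these fits differ was not tested. For spironolactone vs DOCA, its direction and that of the other 4 named genes held under every alternative that gave a value. All were named for low p-values and had groups that did not overlap, so this could hardly have come out otherwise.

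Consistent shifts numbered 117 with DESeq2. They numbered 552 without replicate 4 of both groups, 414 in the fit of 14 libraries and 440 with summed libraries. In these last fits non-overlap was asked of fewer libraries and no second p-value was asked for. With summed libraries the 440 equals the number of genes with an unadjusted p under 0.05. Consistent shifts ranged from 151 to 366 when each library was left out, where non-overlap is also asked of fewer libraries. The number reached 287 without DOCA replicate 1, 366 without DOCA replicate 4, 329 without spironolactone replicate 2 and 284 without spironolactone replicate 4.

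Equivalence within 1 was called for 9114 to 9384 well counted genes, and within 0.5 for 4794 to 7557, when each library was left out, the most without DOCA replicate 4 (78.6%). Summed libraries gave 3961 within 0.5. At a mean of at least 50 CPM, 3836 (97.4%) and 3008 (76.4%) of 3938 genes were called. The likelihood ratio test gives no interval.

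The distance between groups minus that within was -0.019 to 0.0297 when each library was left out, and its exact permutation p ran from 0.2 to 1. The median of all log2 fold changes, -0.01, was -0.0262 with library size alone, 0.00105 with no filter, -0.00333 with limma-voom, 0.0264 and 0.0323 with log2(TPM + 1) and log2(TPM + 0.1), 0.00152 without replicate 4 of both groups, -0.000643 with 16 and 0.0115 with 14 libraries, and -0.0118 to 0.00152 when each library was left out.

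The TPM scale for the comparisons of other groups was added after the data were seen. It turned the direction of ENSRNOG00000018019 for finerenone vs spironolactone (-0.0428 on log2(TPM + 1) and -0.0457 on log2(TPM + 0.1)), of ENSRNOG00000000406 for finerenone vs DOCA (-0.28 and -0.47), and, for DOCA vs control, of ENSRNOG00000014530 (0.37 and 0.41) and ENSRNOG00000000436 (0.45 and 0.47). The medians of all genes were shifted on that scale, by -0.35 and -0.42 for finerenone vs spironolactone, -0.32 and -0.38 for finerenone vs DOCA and 0.40 and 0.48 for DOCA vs control. Genes called on log2(TPM + 1) and log2(TPM + 0.1) were 3996 and 4452 for finerenone vs spironolactone, 3708 and 3987 for finerenone vs DOCA, and 5633 and 6087 for DOCA vs control.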
